A study of Mus musculus with 30 samples.

Results

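This account covers 10 genes used as markers of macrophages, followed across the fracture callus of mice that lack *Apex1* in limb mesenchyme. The genes were given by name as *Adgre1*, *Cd68*, *Mrc1*, *Cd163*, *C1qa*, *C1qb*, *C1qc*, *Fcgr1*, *Mertk* and *Il10ra*, and all 10 were matched to an Ensembl ID among the 55416 IDs of the count table. Bulk RNA was sequenced from the callus of 30 young adult mice after a closed tibial fracture that was left without fixation, at 3, 6, 10 and 14 days post-fracture (dpf). P-Apex1KO mice carried *Prrx1*-Cre and 2 floxed *Apex1* alleles, so the gene was deleted in cells of the limb bud mesenchyme, and macrophages and other blood-derived cells kept it. WT littermates included mice with *Prrx1*-Cre and one floxed allele, and mice with floxed alleles and no Cre. There were 4 WT and 4 P-Apex1KO mice at 3-dpf, 5 and 3 at 6-dpf, 4 and 3 at 10-dpf, and 4 and 3 at 14-dpf, each one a separate library. Both sexes were present in each group except the 3 P-Apex1KO mice of 14-dpf, which were all females.

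Between 18334389 and 43111491 reads per library were counted on genes, and a member had between 99 and 16351 counts in a library. The targeted gene *Apex1* lay between 15.2 and 15.9 CPM (read counts scaled to a common library size) in P-Apex1KO mice at 6-dpf and between 20.4 and 28.3 CPM in WT. At 10-dpf the P-Apex1KO mice had 13.7 to 17 CPM and the WT mice 17 to 27.7 CPM. The 14-dpf ranges were 14 to 18.3 CPM in P-Apex1KO and 19.6 to 27.2 CPM in WT mice. At 3-dpf the libraries labelled P-Apex1KO had 18.5, 28.7, 28.1 and 34.3 CPM. Those of 28.7 and 28.1 CPM lay within the WT range of that day (26.3 to 33.2 CPM), so a loss of *Apex1* was not visible in them. *Apex1* was not called at 3-dpf by edgeR (log2 difference -0.15, standard error 0.19, adjusted p = 0.927). The library of 34.3 CPM lay above every WT library of that day. Its label was not changed, and the members' 3-dpf results are also given without it. In that fit *Fcgr1* was the single member called, the other 9 had adjusted p values of 0.211 to 0.905, and the members' median log2 difference was 0.41.

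Macrophages are phagocytes that settle in tissues before birth or arise from blood monocytes at a site of injury. In a healing fracture they clear debris and dying cells, take up haemoglobin from the haematoma, and send signals to mesenchymal progenitors and vessels. They share their colony-stimulating factor receptor and many lysosomal genes with osteoclasts, the multinucleated cells of the same lineage that resorb mineralised cartilage and bone. The 10 members fall into surface and lysosomal markers of the lineage (*Adgre1*, *Cd68*), receptors for sugars and haemoglobin (*Mrc1*, *Cd163*), the 3 chains of complement C1q (*C1qa*, *C1qb*, *C1qc*), the high-affinity IgG receptor (*Fcgr1*), a receptor for dying cells (*Mertk*) and the ligand-binding chain of the IL-10 receptor (*Il10ra*).

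Promoters of 7 of the 10 members were found in RefSeq's promoter table for mouse build GRCm38.p6, where each entry runs from 250 bases before the start of the gene to 50 bases after it. The 4 below are shown because *C1qb* and *C1qc* were the closest pair of members and *Mrc1* and *Cd68* differed in opposite directions at 14-dpf, and they are written 5′ to 3′ on the strand of the gene. Capitals mark the letters GAGGAA or their reverse complement TTCCTC, the core recognised by PU.1, the transcription factor of the macrophage lineage.
*C1qb* (chr4:136886151-136886450, minus strand): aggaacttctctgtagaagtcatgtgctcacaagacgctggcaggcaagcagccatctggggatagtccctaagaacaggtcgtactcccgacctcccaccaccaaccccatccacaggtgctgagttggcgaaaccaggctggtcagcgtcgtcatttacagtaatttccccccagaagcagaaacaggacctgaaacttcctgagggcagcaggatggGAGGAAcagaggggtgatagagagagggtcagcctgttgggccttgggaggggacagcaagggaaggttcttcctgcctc
*C1qc* (chr4:136892865-136893164, minus strand): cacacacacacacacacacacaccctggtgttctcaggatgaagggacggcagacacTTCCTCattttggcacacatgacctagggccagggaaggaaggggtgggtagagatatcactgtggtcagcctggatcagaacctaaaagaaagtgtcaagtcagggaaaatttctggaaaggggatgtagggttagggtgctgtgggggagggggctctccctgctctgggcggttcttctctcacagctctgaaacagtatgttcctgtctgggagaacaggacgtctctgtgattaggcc
*Mrc1* (chr2:14229164-14229463, plus strand): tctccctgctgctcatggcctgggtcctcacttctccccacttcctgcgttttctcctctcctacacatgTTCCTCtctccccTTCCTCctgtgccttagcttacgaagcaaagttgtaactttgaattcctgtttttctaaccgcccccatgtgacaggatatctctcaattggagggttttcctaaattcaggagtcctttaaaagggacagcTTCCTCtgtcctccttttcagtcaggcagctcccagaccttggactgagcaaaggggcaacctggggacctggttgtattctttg
*Cd68* (chr11:69666121-69666420, minus strand): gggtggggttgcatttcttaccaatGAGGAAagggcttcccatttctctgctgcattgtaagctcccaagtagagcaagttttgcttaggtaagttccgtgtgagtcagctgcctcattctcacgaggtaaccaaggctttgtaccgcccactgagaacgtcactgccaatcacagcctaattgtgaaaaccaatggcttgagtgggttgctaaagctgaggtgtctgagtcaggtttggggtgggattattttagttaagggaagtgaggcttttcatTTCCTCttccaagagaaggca
The core was found 3 times in the *Mrc1* window, 2 times in that of *Cd68*, and 1 time each in those of *C1qb*, *C1qc* and *Fcgr1*. It was absent from the windows of *Cd163* and *Mertk*. Of all 32851 promoters in the table, 28.3% held it on either strand, so its presence was not rare. The letters TGCTGA, a site core of MAF factors, occurred on either strand in 1 of the 7 windows, that of *C1qb*, and in 19.5% of all promoters. An interferon gamma-activated site (TTCNNNGAA) occurred in the *Fcgr1* window alone among the 7, and in 8.3% of all promoters. A match of letters is a description of the window and not evidence of binding.

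All 10 members passed the filter on low counts in each comparison. From 6-dpf on, most macrophage genes were more abundant in the callus of P-Apex1KO mice than in that of WT littermates. At 6-dpf 7 of the 10 members were higher in P-Apex1KO mice and none was lower (quasi-likelihood test of edgeR, sex included, Benjamini-Hochberg adjustment over all genes), where 5.31% of the 20260 genes tested were called higher and 5.61% lower. At 10-dpf 7 members were higher and none was lower, against 3.01% higher and 3.44% lower of 18910 genes. At 14-dpf 6 members were higher, against 4.28% of 20228 genes, and *Cd68* was lower, against 7.04%. At 3-dpf no member passed, nor did any of the 19866 genes tested (0% called), although 1216 genes had an unadjusted p under 0.05 and DESeq2's Wald test called 85, *Fcgr1* among them. In bulk tissue, fewer cells of a type and less RNA per cell cannot be told apart, so these values describe the callus and not a number of macrophages. The median log2 fold change of the 10 members was 0.31 at 3-dpf, 0.82 at 6-dpf, 0.87 at 10-dpf and 1.00 at 14-dpf, and the median of all genes tested lay between -0.003 and 0.043 at the 4 days.

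**Figure D1:**
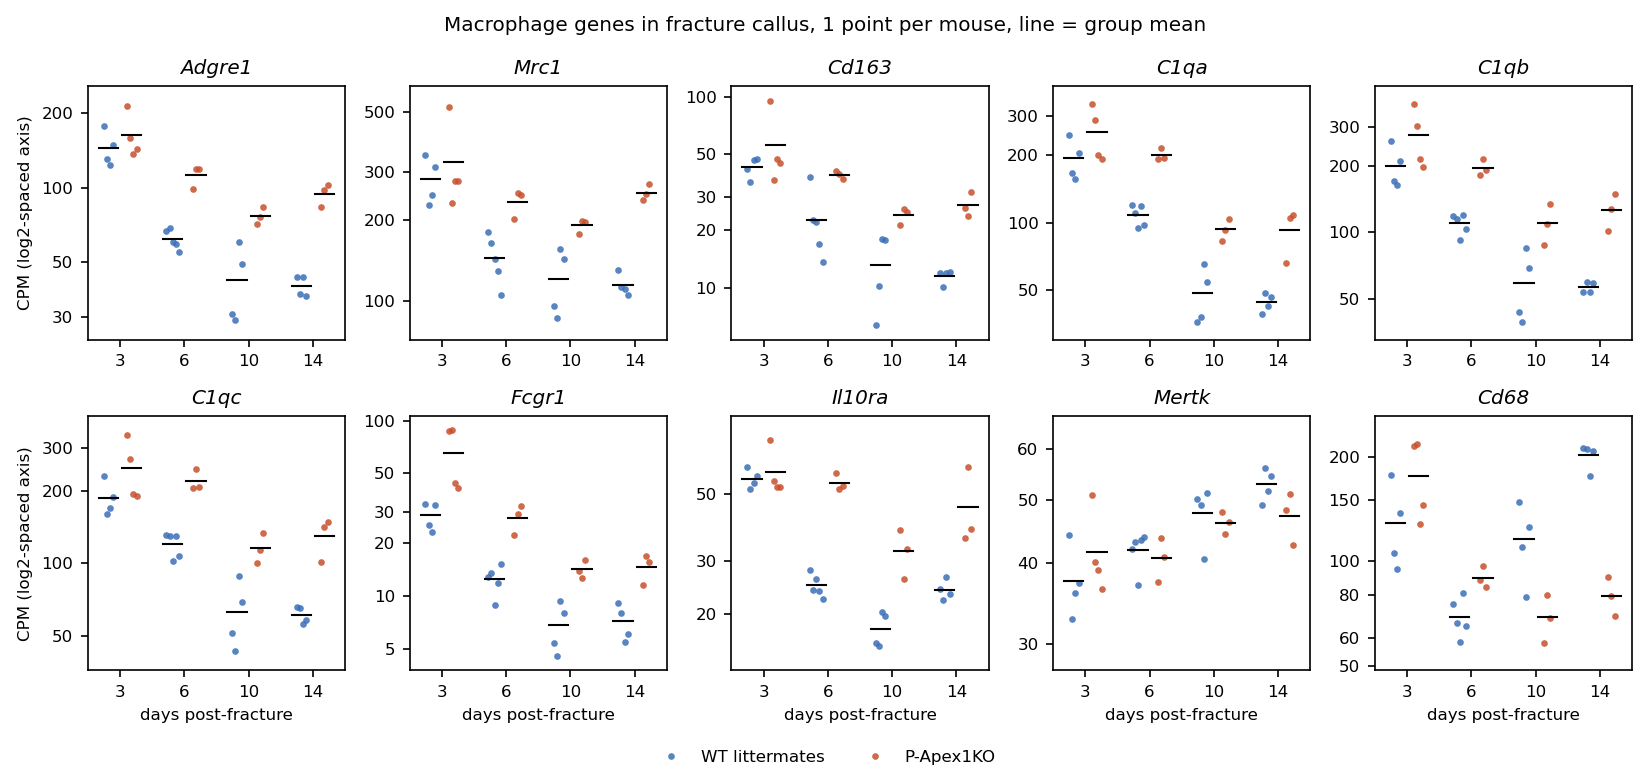
Level of each member in CPM (log-spaced vertical axis) against days post-fracture, with 1 point per mouse, WT littermates in blue, P-Apex1KO in red and a black line at the group mean. From 6-dpf on the P-Apex1KO points of *Adgre1*, *C1qa*, *C1qb*, *C1qc*, *Fcgr1*, *Il10ra* and *Mrc1* lie above all WT points of the same day, while *Cd68* is reversed at 14-dpf and *Mertk* overlaps at each day.

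The strength of these calls differed between days. Leaving out 1 mouse gave 6 to 8 members higher at 6-dpf. At 14-dpf it gave 4 to 6 higher with *Cd68* lower, but the single WT female could not be left out. That mouse sets the estimate of the model with sex, so the 14-dpf range cannot be compared with those of other days. At 10-dpf the count fell to 0 without replicate 1 of P-Apex1KO, the single female of that group, to 1 without replicate 1 or replicate 2 of WT, and to 4 without replicate 3 of P-Apex1KO. At 14-dpf the model with sex rests on 1 WT female, so sex and genotype could not be separated without that mouse. Each 14-dpf log2 difference of that model sets the P-Apex1KO females against that mouse alone. With no sex term the 14-dpf fit gave 8 members higher and 1 lower, and the 10-dpf fit gave 3 higher. Values of the genotypes in CPM did not overlap, with P-Apex1KO above WT, for 1 member at 3-dpf (1.88% of all genes), 8 at 6-dpf (9.44%), 8 at 10-dpf (8.03%) and 8 at 14-dpf (17.6%). *Cd68* was below without overlap at 14-dpf, as were 24.7% of all genes.

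*Adgre1* encodes F4/80, the surface antigen most used to stain mouse macrophages, and spans chromosome 17 from 57665573 to 57790527 on the plus strand of GRCm39. At 3-dpf it had 178, 131, 123 and 149 CPM in the 4 WT mice and 215, 159.6, 137 and 144 CPM in the libraries labelled P-Apex1KO, with partial overlap (log2 fold change 0.10, standard error 0.13). At 6-dpf WT mice had 66.7, 69, 60.4, 59.5 and 55.3 CPM, and P-Apex1KO mice 98.8, 119.6 and 119 CPM. The lowest P-Apex1KO mouse thus stood above the highest WT mouse, and the fold change was 1.76 (log2 0.82, standard error 0.09, adjusted p = 0.00143). The 10-dpf values were 30.9, 29.2, 60.2 and 49.2 CPM in WT and 71.6, 76.2 and 83.6 CPM in P-Apex1KO mice (log2 fold change 0.87, standard error 0.16, adjusted p = 0.0259). At 14-dpf the 4 WT mice had 43.5, 37.3, 43.6 and 36.6 CPM, and the 3 P-Apex1KO mice 83.4, 98.5 and 102 CPM. That difference was 1.16 on the log2 scale (standard error 0.18, adjusted p = 0.00698), again without overlap.

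The receptors for sugars and haemoglobin followed *Adgre1*. *Mrc1*, the mannose receptor CD206 that takes up glycoproteins and collagen fragments, lies on chromosome 2 from 14234151 to 14336926, on the plus strand. WT mice had 181, 164, 143, 129 and 105 CPM at 6-dpf, and P-Apex1KO mice 202, 250.0 and 246 CPM. All 3 P-Apex1KO mice stood above the 5 WT mice, a log2 difference of 0.65 (standard error 0.17, adjusted p = 0.0372), and this call was lost in 6 of the 8 fits that left out 1 mouse. At 14-dpf the WT values were 131, 113, 111 and 106 CPM and the P-Apex1KO values 236, 248 and 269.9 CPM, so that the groups were far apart relative to their spread (log2 fold change 0.98, standard error 0.13, adjusted p = 0.00366). The 10-dpf difference was 0.66 (standard error 0.13, adjusted p = 0.0252).

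*Cd163*, the receptor that clears haemoglobin bound to haptoglobin, is on chromosome 6 from 124281606 to 124307560, on the plus strand. At 6-dpf it spread from 13.6 to 38.2 CPM among WT mice and from 37 to 40.6 CPM among P-Apex1KO mice, which left the genotypes overlapping through 1 WT mouse (log2 difference 0.85, standard error 0.28, adjusted p = 0.0852). At 10-dpf WT mice had 6.41, 10.2, 18 and 17.7 CPM and P-Apex1KO mice 21.3, 25.9 and 24.9 CPM, without overlap, yet the adjusted p was 0.0547. *Cd163* passed at 14-dpf, with 12, 10.1, 11.9 and 12.1 CPM in WT and 26, 23.6 and 31.6 CPM in P-Apex1KO mice (log2 fold change 1.21, standard error 0.21, adjusted p = 0.0117). Divided by *Adgre1* in the same library, *Cd163* gave a ratio of CPM between 0.21 and 0.57 over the 30 libraries, and the 8 group means of this ratio lay between 0.29 and 0.36.

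C1q starts the classical complement pathway and also marks dying cells for uptake, and tissue macrophages are its main source. Its 3 chains are encoded side by side on the minus strand of chromosome 4, with *C1qb* from 136606009 to 136613511, *C1qc* from 136616466 to 136620376 and *C1qa* from 136623223 to 136626161. *C1qb* had 118, 114, 92.3, 120.0 and 103.6 CPM in WT and 181, 215 and 192 CPM in P-Apex1KO mice at 6-dpf. The genotypes were well apart, and the log2 fold changes of the 3 genes were 0.87 for *C1qa* (standard error 0.10, adjusted p = 0.00153), 0.83 for *C1qc* (0.11, adjusted p = 0.00223) and 0.80 for *C1qb* (0.10, adjusted p = 0.00199). At 10-dpf *C1qb* stood at 43.3, 39.1, 85.1 and 68.8 CPM in WT and 87.9, 109 and 134 CPM in P-Apex1KO mice, which did not overlap but came close. *C1qa* was higher by 0.93 on the log2 scale (standard error 0.12, adjusted p = 0.00989), *C1qb* by 0.87 (0.13, adjusted p = 0.0158) and *C1qc* by 0.86 (0.14, adjusted p = 0.0181). At 14-dpf *C1qb* had 53.5, 59.8, 53.7 and 59 CPM in WT and 102, 128 and 149 CPM in P-Apex1KO mice. The 14-dpf log2 differences were 1.29 for *C1qa* (standard error 0.29, adjusted p = 0.0314), 1.28 for *C1qb* (0.22, adjusted p = 0.0109) and 1.02 for *C1qc* (0.23, adjusted p = 0.0301), and those of *C1qa* and *C1qc* were lost in 4 and 3 of the 6 fits that left out 1 mouse.

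The mix of the 3 chains varied little. Of the summed CPM of the 3 genes, *C1qa* made up 24.6% to 34.1% in the 30 libraries, *C1qb* 31.3% to 37.8% and *C1qc* 31.2% to 41.5%. The mean share of *C1qa* was 33.3% in WT at 3-dpf and 27.4% in WT at 14-dpf, and in P-Apex1KO it was 32.9% and 26.5%. The share was thus lower on the later day in both genotypes. The sample names change their form between these days, so a change of batch could not be told apart from time here. *C1qb* and *C1qc* were the closest pair among the 10 members, with a root mean square difference of 0.127 log2 CPM over the 30 libraries after each gene was centred on its mean. These libraries share scaling, and the value is a description of likeness only.

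*Fcgr1*, which encodes CD64, the receptor that binds monomeric IgG and is induced by interferon gamma, is on chromosome 3 from 96190225 to 96201338, on the minus strand. It was the one member separated at 3-dpf. The 4 WT mice had 33.6, 25.5, 23.2 and 33.1 CPM and the libraries labelled P-Apex1KO 87.4, 88.1, 43.8 and 41.4 CPM, so that the lowest of the latter exceeded the highest WT mouse. The log2 difference was 1.03 (standard error 0.24, unadjusted p = 0.00325) and did not pass over all genes (adjusted p = 0.768). DESeq2's Wald test called it (adjusted p = 0.0132), as did the model of all 30 libraries (0.0411) and edgeR without the library of high *Apex1* (log2 fold change 1.19, adjusted p = 0.049), while the adjusted p lay between 0.372 and 1 when any other library was left out. At 6-dpf *Fcgr1* had 12.9, 13.5, 8.89, 11.9 and 15.2 CPM in WT and 22.4, 29.1 and 32.4 CPM in P-Apex1KO mice (log2 fold change 1.11, standard error 0.18, adjusted p = 0.00553). At 10-dpf the values were 5.38, 4.53, 9.37 and 7.94 CPM against 13.8, 12.7 and 16.1 CPM (log2 fold change 1.06, standard error 0.19, adjusted p = 0.0214). The 14-dpf values of 9.05, 8.04, 5.50 and 6.03 CPM in WT and 11.5, 17 and 15.6 CPM in P-Apex1KO mice did not overlap, but the test with sex did not pass (log2 difference 0.73, adjusted p = 0.164), and without the sex term it did (1.10, adjusted p = 0.00482). The single WT female, against which the model with sex sets the P-Apex1KO females, had the highest of the WT values (9.05 CPM).

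*Il10ra* encodes the chain of the IL-10 receptor that binds this anti-inflammatory cytokine, is present on lymphocytes as well as macrophages, and is on chromosome 9 from 45165132 to 45180563, on the minus strand. Its 3-dpf levels were 61.5, 52.3, 54.7 and 57.4 CPM in WT and 75.8, 55.5, 53 and 52.9 CPM in the libraries labelled P-Apex1KO, the smallest log2 difference of the 10 members (0.03, standard error 0.12). At 6-dpf WT mice had 28.1, 24.1, 26.1, 23.9 and 22.4 CPM, and P-Apex1KO mice 58.9, 52.1 and 53.3 CPM. The 6-dpf WT mice thus lay below every 3-dpf mouse and the 6-dpf P-Apex1KO values were not called different from those of 3-dpf, a genotype difference of 1.17 on the log2 scale at 6-dpf (standard error 0.09, adjusted p = 0.000389). The 10-dpf levels were 16, 15.6, 20.3 and 19.7 CPM in WT and 38.2, 26.1 and 32.8 CPM in P-Apex1KO mice (log2 fold change 0.89, standard error 0.16, adjusted p = 0.0242). At 14-dpf WT mice had 24.2, 22.2, 26.6 and 23.4 CPM and P-Apex1KO mice 35.9, 61.9 and 38.5 CPM. These did not overlap, yet 1 P-Apex1KO mouse stood well above the other 2, and the adjusted p was 0.109 (log2 difference 0.94, standard error 0.32).

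*Mertk*, the tyrosine kinase receptor by which macrophages engulf dying cells, is on chromosome 2 from 128540729 to 128645080, on the plus strand, and overlapped between genotypes at each day. At 3-dpf it lay between 32.8 and 44.3 CPM in WT and between 36.5 and 51 CPM in the libraries labelled P-Apex1KO. The 14-dpf range was 49.3 to 56.2 CPM in WT and 42.6 to 51.1 CPM in P-Apex1KO mice. The log2 differences were 0.11, -0.07, 0.00 and -0.02 at 3-, 6-, 10- and 14-dpf, each with a standard error of 0.09 to 0.13, and none passed. *Mertk* had the smallest spread of the 10 members over the 30 libraries (SD of 0.20 log2 CPM, where *Fcgr1* had 1.11).

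*Cd68* encodes a lysosomal glycoprotein of macrophages that osteoclasts also carry, and spans chromosome 11 from 69555037 to 69557067 on the minus strand. At 14-dpf it was the one member called lower in P-Apex1KO mice. At 6-dpf WT mice had 75.3, 66.3, 58.5, 81 and 65.3 CPM and P-Apex1KO mice 88.2, 96.6 and 84.2 CPM, which did not overlap and did not pass (log2 difference 0.35, standard error 0.11, adjusted p = 0.0718). At 10-dpf the WT values were 148, 110.0, 78.6 and 125 CPM and the P-Apex1KO values 58.3, 80 and 68.4 CPM (log2 difference -0.69, standard error 0.22, adjusted p = 0.115). DESeq2's Wald test called the 10-dpf difference (-0.70, adjusted p = 0.0084). At 14-dpf WT mice reached 212, 211, 176 and 208 CPM while P-Apex1KO mice had 89.9, 79.1 and 69.4 CPM. The highest P-Apex1KO mouse was far below the lowest WT mouse, and the fold change was 0.38 (log2 -1.38, standard error 0.15, adjusted p = 0.00184).

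Osteoclast genes and *Cd68* were both lower in P-Apex1KO mice at 14-dpf, and at 10-dpf osteoclast genes were lower while *Cd68* did not pass. The 12 osteoclast genes listed (among them *Acp5*, *Ctsk*, *Ocstamp* and *Mmp9*) summed to 3848 to 8646 CPM in WT and 1554 to 2460 CPM in P-Apex1KO mice at 10-dpf, with 7 of 12 lower. At 14-dpf the sum was 13380 to 14980 CPM in WT and 2131 to 3713 CPM in P-Apex1KO mice, with 12 of 12 lower, and no listed gene was at 0 in all mice of a group. *Csf1r*, the receptor for the growth factor of both cell types and not a member, had 632, 523, 525 and 560.1 CPM in WT and 290.0, 286 and 276 CPM in P-Apex1KO mice at 14-dpf (log2 fold change -1.12, standard error 0.11, adjusted p = 0.00113). At 6-dpf the same gene was higher in P-Apex1KO mice, with 259, 289.8 and 258 CPM against 182, 153, 148, 172 and 125 CPM in WT (log2 fold change 0.77, standard error 0.13, adjusted p = 0.00629). The part of osteoclast RNA in the values of *Cd68* was not tested.

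The ratio of *Mrc1* to *Cd68* CPM within a library sets both members side by side. In WT mice it was 1.95, 2.14, 2.60 and 2.27 at 3-dpf, 1.59 to 2.47 at 6-dpf, 0.65 to 1.98 at 10-dpf, and 0.61, 0.53, 0.63 and 0.51 at 14-dpf. P-Apex1KO mice had 2.28 to 2.93 at 6-dpf, 2.48 to 3.05 at 10-dpf, and 2.62, 3.14 and 3.89 at 14-dpf. The 3-dpf libraries labelled P-Apex1KO had 1.05 to 2.42. Over the 30 libraries the ratio ran from 0.51 to 3.89, and both ends were at 14-dpf.

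**Figure D2:**
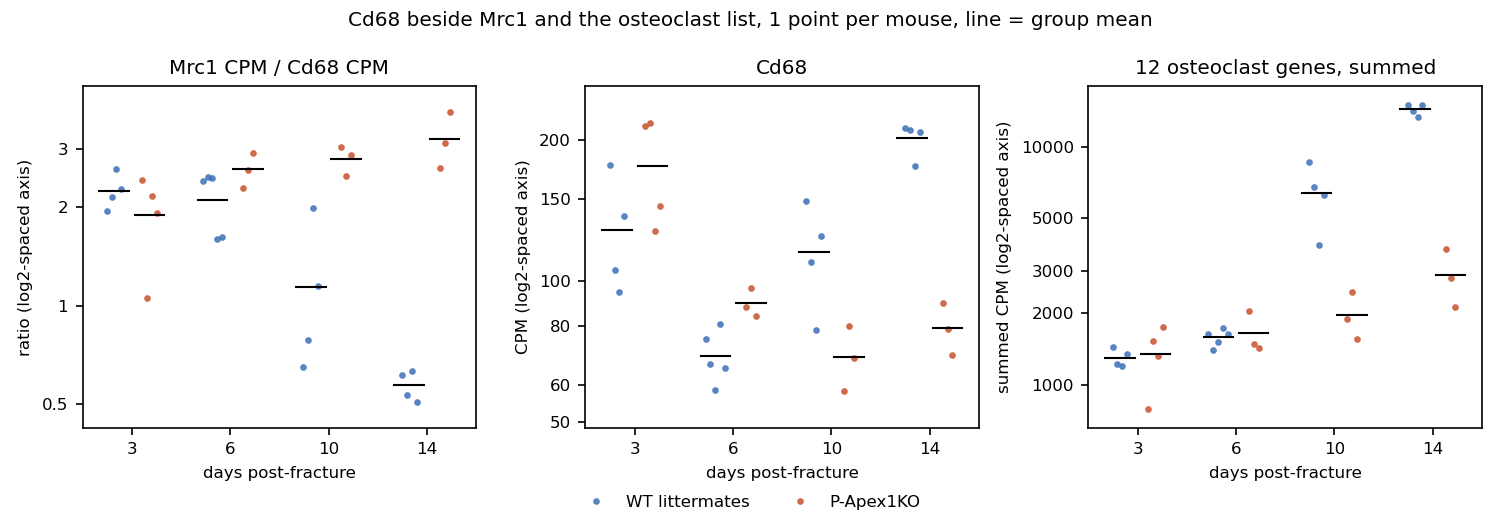
Left, ratio of *Mrc1* to *Cd68* CPM. Middle, *Cd68* in CPM. Right, summed CPM of the 12 osteoclast genes. All 3 panels have log-spaced vertical axes and days post-fracture below, with 1 point per mouse and a black line at the group mean. At 14-dpf WT mice have a ratio of 0.51 to 0.63 and an osteoclast sum of 13380 to 14980 CPM, and P-Apex1KO mice a ratio of 2.62 to 3.89 and a sum of 2131 to 3713 CPM.

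**Figure D3:**
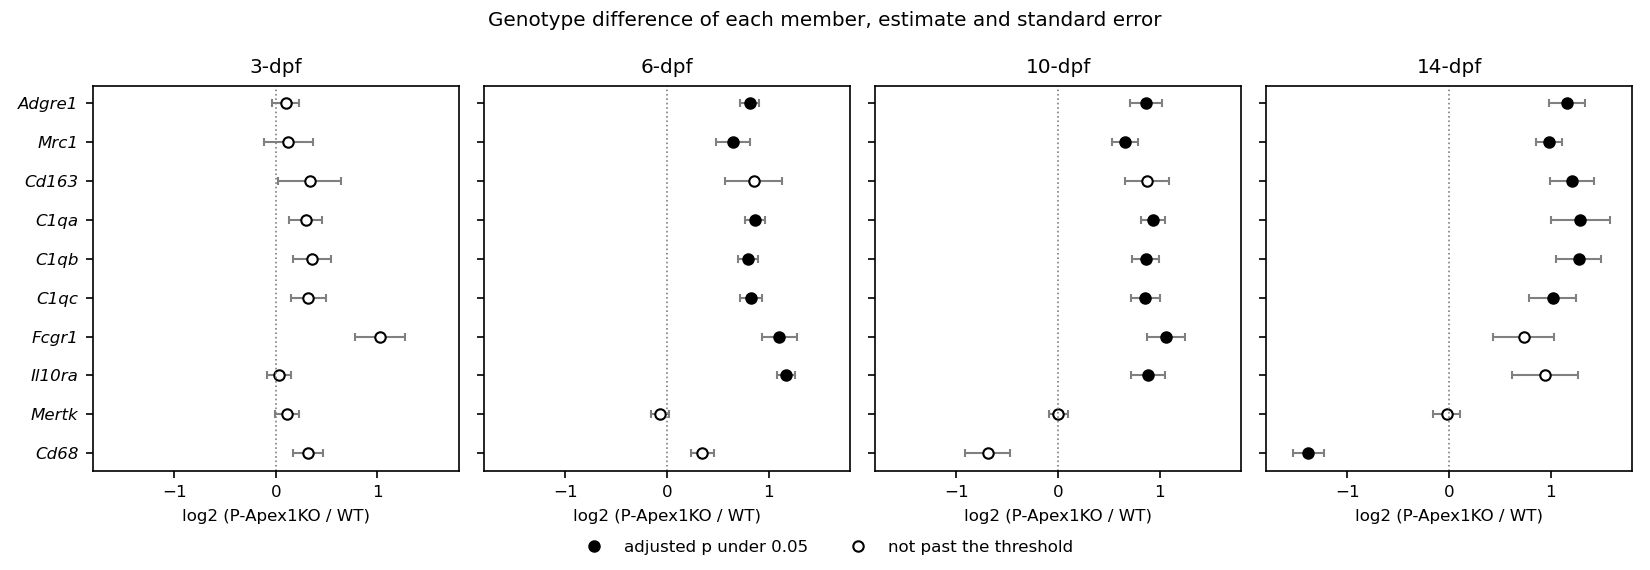
Log2 fold change of each member in P-Apex1KO against WT mice at the 4 days, with its standard error as a horizontal bar. Filled circles have an adjusted p under 0.05 and open circles do not, and the filled circles number 0, 7, 7 and 7.

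Whether the genotype difference itself changed was tested between 3- and 6-dpf and between 10- and 14-dpf. *Il10ra* was the one member whose difference was larger at 6-dpf than at 3-dpf, by 1.08 on the log2 scale (standard error 0.16, adjusted p = 0.0036), where 0.318% of 20468 genes were called in that direction. *Adgre1* came next with 0.68 (standard error 0.16, adjusted p = 0.0536). Without the library of high *Apex1* 1 member was called as well, and 2 were called by DESeq2 and under 4 other settings. None of the 10 genotype differences was called between 10- and 14-dpf (0.436% of 19705 genes were), and DESeq2 called no member either. Before adjustment 4 members had a p under 0.05 in edgeR's test, as did 2577 of the 19705 genes. Of these members *Cd68* was at -0.68 and *Mrc1* at 0.65.

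In WT mice 9 of the 10 members fell from 3- to 6-dpf, where 15.1% of genes were called lower, and *Mertk* did not pass. The call of *Cd163* (-0.94, adjusted p = 0.0295) was lost in 6 of the 16 fits that left out 1 mouse and with no filter on low counts. The decreases ran from 0.62 for *C1qc* to 1.21 for *Adgre1* on the log2 scale. In P-Apex1KO mice 3 members fell, against 6.91% of genes, namely *Fcgr1* (-1.18), *Cd68* (-0.92) and *Adgre1* (-0.53). Without the library of high *Apex1* these 3 were called again (-1.36, -1.02 and -0.60), and *C1qb* was called as well (-0.59, adjusted p = 0.0121, against -0.45 and 0.0861 with the library). From 10- to 14-dpf *Cd68* rose in WT mice by 0.83 (standard error 0.17, adjusted p = 0.00749), against 6.19% of genes called higher, and no other member passed. None passed in P-Apex1KO mice over that interval, where 0.259% of all genes did. DESeq2 called no member there, and 4 members had an unadjusted p under 0.05 in edgeR's test, as did 2811 of 19705 genes. Levels of 6- and 10-dpf were not compared by a test because the sample names change their form between them, and a change of batch could not be told apart from time.

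Levels between genes were compared as CPM per kilobase of the canonical transcript. In WT mice at 3-dpf *C1qa* led with 178 CPM per kb, followed by *Cd68* with 108, *C1qc* with 101 and *C1qb* with 78.9. Within these 4, neighbours in the order overlapped in their ranges over mice, and *C1qb* lay above *Mrc1* (51.5) without overlap. In WT mice at 14-dpf *Cd68* led with 169 CPM per kb and *C1qa* followed with 40.8, without overlap. In P-Apex1KO mice at 14-dpf *C1qa* led with 85.8, followed by *C1qc* (70.2) and *Cd68* (66.3), whose ranges overlapped. *Fcgr1* and *Cd163* closed the order at 14-dpf, with 2.71 and 2.61 CPM per kb in WT and 5.56 and 6.13 in P-Apex1KO mice.

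*Ptprc* (CD45), carried by all leukocytes, was set against the members in the same library. It had 223, 224, 211, 168 and 177 CPM in WT and 278, 227 and 377 CPM in P-Apex1KO mice at 6-dpf (log2 difference 0.56, adjusted p = 0.0736). At 10-dpf *Ptprc* differed by 0.70 on the log2 scale (standard error 0.16, adjusted p = 0.0416), and at 14-dpf P-Apex1KO mice had 388, 569.8 and 347 CPM against 221 to 247 CPM in WT (0.96, adjusted p = 0.0667). The genotypes did not overlap in *Ptprc* on any of these 3 days. Divided by *Ptprc*, no member was above WT without overlap at any day, where 0.886%, 0.893%, 0.566% and 1.5% of all genes were at 3-, 6-, 10- and 14-dpf. *Cd68* and *Mertk* were below WT without overlap in this ratio at 10- and 14-dpf, as were 55.9% and 62.4% of all genes. The *Adgre1* ratio was 0.29 to 0.35 in WT and 0.32 to 0.53 in P-Apex1KO mice at 6-dpf. On that day the P-Apex1KO mean was 1.15 (*Mrc1*) to 1.55 (*Il10ra*) times the WT mean, except for *Cd68* (0.91) and *Mertk* (0.68), all with overlap. The *Cd68* ratio was 0.71 to 0.96 in WT and 0.14 to 0.23 in P-Apex1KO mice at 14-dpf.

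**Figure D4:**
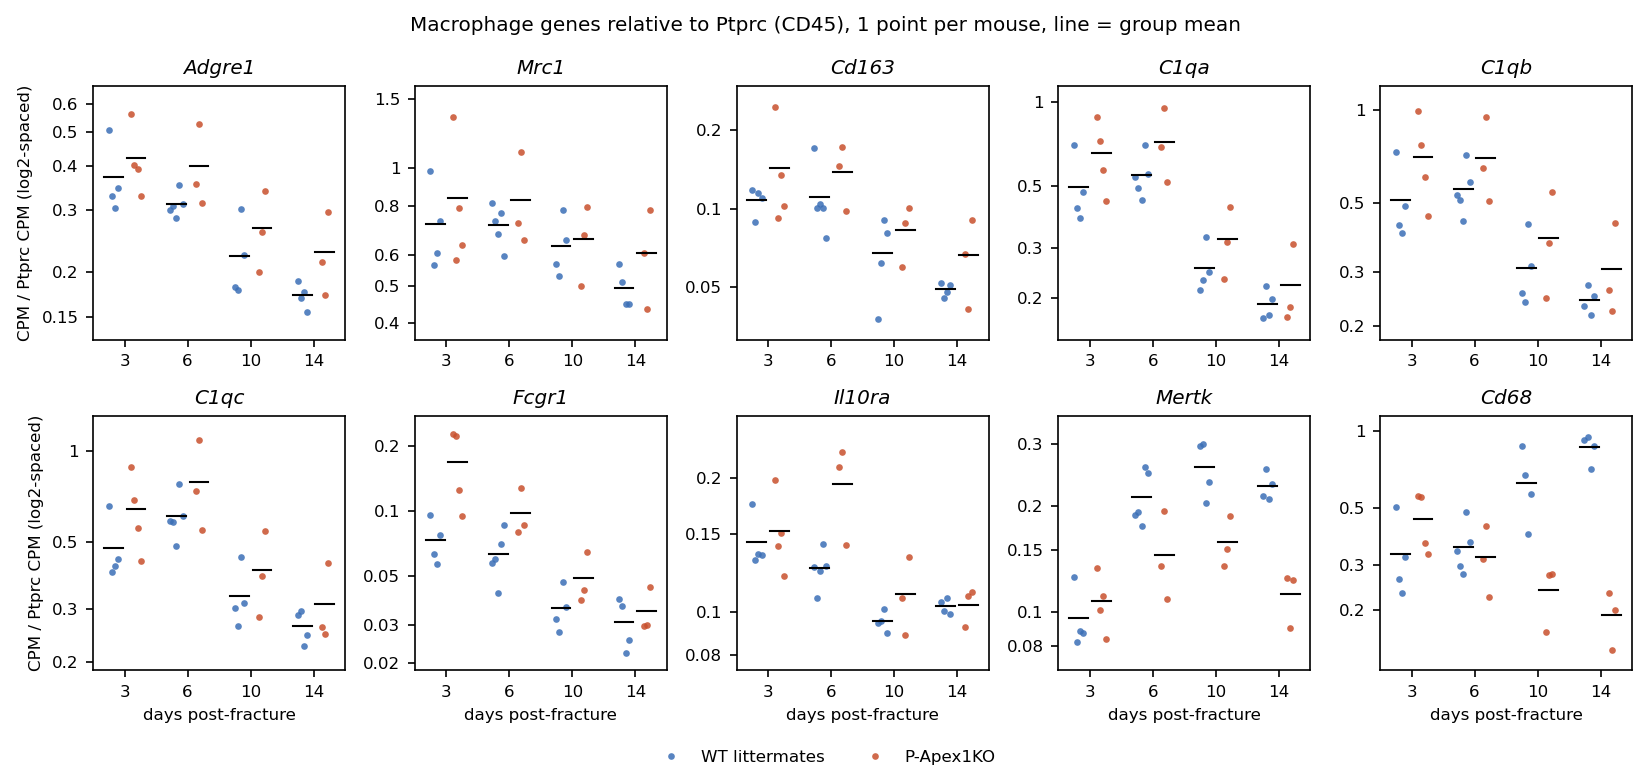
CPM of each member divided by CPM of *Ptprc* in the same library (log-spaced vertical axis) against days post-fracture, with 1 point per mouse and a black line at the group mean. The genotypes overlap for each member at 3- and 6-dpf. *Cd68* and *Mertk* are lower in P-Apex1KO mice without overlap at 10- and 14-dpf, as are 55.9% and 62.4% of all genes.

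Other cell types differed between the genotypes as well, and their part in the members' values was not tested. Of 10 pan-leukocyte genes 4 were higher in P-Apex1KO mice at 6-dpf, 6 at 10-dpf and 2 at 14-dpf. Of 14 T and NK cell genes the counts were 10, 3 and 1, of 10 B cell genes 3, 1 and 0, of 12 neutrophil genes 0, 0 and 9, and of 8 monocyte genes 0, 2 and 3, and none of these lists had a lower gene. The 12 skeletal muscle genes summed to 3579 to 6720 CPM in WT and 8687 to 20130 CPM in P-Apex1KO mice at 6-dpf, and 10 of them were higher. Some of these counts moved far with the setting, to between 2 and 11 for the T and NK cell genes at 6-dpf, 0 and 12 for the neutrophil genes at 10-dpf, and 0 and 11 for the muscle genes at 6-dpf. The 14 cartilage genes summed to 37430 to 64890 CPM in WT and 3280 to 6323 CPM in P-Apex1KO mice on that day, and all 14 were lower. Because the cartilage sum is part of the total to which CPM refers, the scaling matters there. Scaled by library size instead of TMM, the median of all genes was 0.20 on the log2 scale at 6-dpf and 0.31 at 14-dpf. Each of the 7 members called at 6-dpf was still higher, but this scaling moved genes upward in P-Apex1KO mice as a whole. It therefore could not show whether the members' differences depend on the scaling. With DESeq2's size factors, and with TMM without the 20 genes of highest count, each of these 7 members was called higher at 6-dpf as well.

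Among 24 other macrophage genes, 18 were higher in P-Apex1KO mice at 6-dpf and none was lower (6 to 21 higher over the alternative settings), and their median difference was 0.71 in log2 units. At 10-dpf 9 were higher (4 to 15 over the settings, median 0.68). At 14-dpf 9 were higher (9 to 19, median 0.95) and *Csf1r* was lower. *Vsig4*, a complement receptor of resident macrophages, led at 6-dpf with 3.71 CPM in P-Apex1KO against 0.98 CPM in WT (means; log2 fold change 2.15, adjusted p = 0.00804). *Timd4*, a receptor for phosphatidylserine on resident macrophages, was higher at 6-dpf (log2 fold change 1.05, adjusted p = 0.0391) and at 14-dpf (1.82, adjusted p = 0.0191), and did not pass at 10-dpf (0.47, adjusted p = 0.520). *Siglec1*, the sialic acid receptor CD169, had 75.9 CPM in P-Apex1KO and 39.2 CPM in WT mice at 6-dpf (means; log2 fold change 1.00, adjusted p = 0.00469). In edgeR's test neither *Vsig4* (adjusted p = 0.321 at 10-dpf and 0.117 at 14-dpf) nor *Siglec1* (0.0951 and 0.14) passed on the later days.

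The pathways around the members were described by the same counts, which varied over the settings by as much as 1 to 12 for the complement genes and 1 to 9 for the transcription factors at 6-dpf. Of 15 complement genes 7 were higher at 6-dpf, 2 higher and 1 lower at 10-dpf, and 4 higher and 1 lower at 14-dpf, and *C4b*, the component cleaved after C1q binds, differed by 0.89 on the log2 scale at 6-dpf (adjusted p = 0.00489), 0.81 at 10-dpf (adjusted p = 0.101, not passed) and 1.41 at 14-dpf (adjusted p = 0.0362). Of 8 Fc receptor and signalling genes 5 were higher at 6-dpf, 6 at 10-dpf and 4 at 14-dpf. *Fcgr4*, *Fcgr2b* and *Fcgr3*, the low- and medium-affinity IgG receptors, had log2 fold changes of 1.17, 0.82 and 0.74 at 6-dpf and 2.07, 1.14 and 1.14 at 14-dpf, and each passed on both days.

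Of 12 genes for the uptake of dying cells 4 were higher and 1 lower at 6-dpf, 2 higher at 10-dpf, and 1 higher and 1 lower at 14-dpf (median log2 difference 0.31, 0.26 and -0.04). The one lower at 6-dpf was *Mfge8*, a bridge to phosphatidylserine that is also made by mesenchymal cells (log2 fold change -1.44, adjusted p = 0.0225), and *Stab2* was among the higher ones (0.99, adjusted p = 0.00893). Of 11 scavenger and lectin receptors 4 were higher and 2 lower at 6-dpf, with *Clec10a* at 0.89 and *Colec12* at -0.82, and 2 and 1 were higher at 10- and 14-dpf. Of 9 genes for haem and iron 3 were higher and 1 lower at 6-dpf, and the lower one was the iron exporter *Slc40a1* (-0.45, adjusted p = 0.0163), and 2 and 1 were higher at the later days. Of 9 genes of the IL-10 pathway *Il10rb*, the partner chain of *Il10ra*, was the single call at 6-dpf (0.37, adjusted p = 0.0279), with 1 call at 10-dpf and 0 at 14-dpf (median -0.13). Over the settings the number higher at 6-dpf ran from 1 to 8, 0 to 7, 1 to 5 and 0 to 6 for these 4 lists.

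Of the 6 genes of the CSF1 and CSF2 axis 5 passed the filter, and 4 of them were higher at 6-dpf, 1 was lower at 10-dpf and 2 were lower at 14-dpf. Of 10 macrophage transcription factors 5 were higher at 6-dpf, with *Cebpb* at 1.00, *Irf5* at 0.74 and *Irf8* at 0.67, while at 14-dpf none was higher and 2 were lower. Of 12 genes of macrophage activation 6 were higher and 1 lower at 6-dpf, 3 higher at 10-dpf and 3 higher at 14-dpf. *Cd80*, a ligand that costimulates T cells, had 3.77 CPM in WT and 11.9 CPM in P-Apex1KO mice at 6-dpf (means; log2 fold change 1.64, adjusted p = 0.000531). Of 7 genes of MHC class II 5 were higher at 6-dpf, 3 at 10-dpf and 1 at 14-dpf, and *H2-Aa* had a log2 fold change of 1.35 at 6-dpf (adjusted p = 0.000389) and 1.37 at 14-dpf (adjusted p = 0.0155).

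The genes whose course over the 30 libraries was most like the mean of the 10 members were *Tmem106a*, *Mpeg1*, *Fcer1g*, *Mgst1*, *Fcgr3*, *Pde4b*, *Tlr2*, *Slc15a3*, *Adap2* and *Pld4*. Their root mean square distance from that mean was 0.135 to 0.205 log2 CPM, where the median of the 13785 genes ranked was 0.676. Of the members, *Adgre1* lay closest to their mean (0.20) and *Cd68* (0.81), *Mertk* (0.74) and *Fcgr1* (0.51) farthest. The mean includes each member, so its distance is understated.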

How the data were processed

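RNA was extracted from 30 calluses, depleted of rRNA and beta globin transcripts, and made into stranded libraries that were read from both ends. The authors aligned the reads with STAR 2.7.0d to mm39 and used featureCounts with Ensembl v104 to count the uniquely mapped reads on the reverse strand of each gene, and deposited raw counts without normalization, 1 column per mouse. They tested with DESeq2 1.32.0 and sex as a covariate, and those results were not used here. All 30 columns were matched to a labelled sample. Replicates were separate mice.

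From the deposited counts, each day was fitted with edgeR 4.0.16 in R 4.3.3 (filterByExpr, TMM, genotype and sex, robust quasi-likelihood fits, Benjamini-Hochberg adjustment over all genes tested, threshold 0.05). Models of 2 days with 4 groups and sex tested changes between 3- and 6-dpf and between 10- and 14-dpf. CPM are scaled by TMM over all 30 libraries. CPM per kb divide by the length of the canonical transcript in GENCODE M39 (GRCm39), which holds 54749 of the 55416 IDs. Of 259 list symbols 258 were matched (not *Ahsp*). Standard errors are the log2 fold change divided by the square root of F. With 99 counts or more per member and library, the number of mice limits the precision, rather than counting error.

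Likeness was the root mean square difference of centred log2 CPM (prior count 2) among genes whose mean CPM reached 1, and the 10 closest were named. From other lists at most 3 genes per list were named, those with the largest differences past the threshold at 6-dpf. Genes of other lists given as background are *Apex1*, *Csf1r* and *Ptprc*. The members and lists were chosen with earlier results of these data known. Alternatives were a Wald test (DESeq2 1.42.0), models without sex, scaling by size factors (DESeq2) or by library size, TMM without the 20 genes of highest count, a filter of 10 counts per library or none, 1 model of all samples, the replicate number as a block, and each mouse left out. No set test was run.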

Additional observations from a re-analysis of the deposited data

Results flagged for a closer look

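Of 50 groups of 4 or 5 mice examined gene by gene, 5 held a mouse whose gap to its nearest neighbour was large against the range of the group (Dixon's 95% critical value), and chance flags about 1 in 20 groups. *Cd68* had 176.3 CPM in WT replicate 3 at 14-dpf, below the other 3 mice (208 to 212 CPM), and this mouse was still above all P-Apex1KO mice. *Mrc1* had 518.7 CPM and *Il10ra* 75.85 CPM in replicate 1 of the 3-dpf libraries labelled P-Apex1KO, above the other 3 (up to 278 and 55.5 CPM). The same library also had the highest *Cd163* of the 30 (94.7 CPM). *Cd163* had 10.08 CPM in WT replicate 2 at 14-dpf, below the others (11.9 to 12.1 CPM), and *Mertk* 36.99 CPM in WT replicate 3 at 6-dpf, below the others (42.1 to 43.9 CPM).

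The genotype difference of *Il10ra* was larger at 6-dpf than at 3-dpf by 1.078 on the log2 scale (edgeR's interaction test, adjusted p = 0.003595).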

How the results depend on the processing

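No member turned from higher to lower, or the reverse, among those past the threshold. Of 900 values recomputed with every mouse, 853 kept their direction and their side of the threshold, 6 lost significance, 22 gained it and 19 changed sign. Of 1190 with 1 mouse left out, 1105 kept both, 41 lost significance, 8 gained it and 36 changed sign. The number of members called at 3-dpf was 0, and 1 under DESeq2 and in the model of all 30 samples (0 to 1 with 1 mouse left out). At 10-dpf it was 7, and 3 with no sex term (0 to 8 with 1 mouse left out). For the genotype difference of 6- against 3-dpf it was 1, and 2 under DESeq2, library size alone, TMM without the 20 genes of highest count, a minimum of 10 counts per library, and no filter (1 to 2 with 1 mouse left out, the 2 without P-Apex1KO replicate 1 of 3-dpf or WT replicate 1 of 6-dpf). In WT mice from 10- to 14-dpf it was 1 (1 to 2, the 2 without P-Apex1KO replicate 2 of 14-dpf). The fit of 14-dpf without WT replicate 1, the single WT female, could not be made. The cause of these shifts was not tested.

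None of the values that changed sign was past the threshold. With library size alone they were *Il10ra* at 3-dpf (-0.021), *Mertk* at 6-dpf (0.12) and 14-dpf (0.25), *Mertk* in WT from 3- to 6-dpf (-0.081), *Fcgr1* in WT from 10- to 14-dpf (-9.7e-05), and the genotype differences of 6- against 3-dpf of *Cd68* (0.15), *Fcgr1* (0.23) and *Mertk* (0.045) and of 14- against 10-dpf of *Mertk* (0.025). *Mertk* at 10-dpf was -0.0036 under DESeq2, -0.0036 with its size factors, -0.043 in the model of all samples and -0.018 with no sex term, and at 14-dpf 0.00905 with a minimum of 10 counts. *Fcgr1* with no sex term was 0.0031 for 6- against 3-dpf.

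With 1 mouse left out, the genotype difference at 3-dpf ran from -0.017 to 0.16 for *Adgre1*, -0.13 to 0.25 for *Mrc1* and -0.082 to 0.083 for *Il10ra*. For *Mertk* it ran from -0.077 to 0.094 at 10-dpf and -0.087 to 0.045 at 14-dpf. The change of the difference from 3- to 6-dpf ran from -0.23 to 0.011 for *Cd68* and -0.20 to 0.13 for *Fcgr1*, and from 10- to 14-dpf from -0.16 to 0.60 for *Fcgr1* and -0.20 to 0.43 for *Il10ra*. In P-Apex1KO from 3- to 6-dpf it was -0.27 to 0.0042 for *C1qc*, -0.090 to 0.074 for *Mertk* and -0.19 to 0.023 for *Il10ra*. In WT from 10- to 14-dpf it was -0.34 to 0.079 for *Adgre1*, -0.32 to 0.038 for *Mrc1*, -0.33 to 0.029 for *C1qb*, -0.31 to 0.10 for *C1qc* and -0.25 to 0.25 for *Fcgr1*, and in P-Apex1KO -0.12 to 0.28 for *Cd68* and -0.032 to 0.088 for *Mertk*.

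Deviations of same-numbered mice correlated between -0.253 and 0.41. With so few mice in a group this does not decide whether the replicate numbers pair the mice, and what the numbers stand for is not known. A model with the number as a block in place of sex called 0, 6, 8 and 9 members at 3-, 6-, 10- and 14-dpf. Under the block *Mertk* at 6-dpf was 0.0061, *C1qa* in P-Apex1KO from 10- to 14-dpf -0.016, and the genotype differences of *Fcgr1* 0.14 (6- against 3-dpf) and -0.037 (14- against 10-dpf).

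Over all genes, 2212 were called at 6-dpf, and 677 with the block and 3594 with library size alone (2780 higher, against 1075 of 2212). At 10-dpf 1221 were called, and 2187 by DESeq2 and 750 with no sex term, and at 14-dpf 2289, and 6849 with no sex term. With library size alone 1878 of the 2644 calls at 14-dpf were higher, against 865 of 2289, and 849 of 1313 at 10-dpf, against 570 of 1221.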

Other observations

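Other cell types of the callus differed between genotypes over the same days. Of 12 osteoblast genes 10 were lower in P-Apex1KO mice at 6-dpf, 8 at 10-dpf and 8 at 14-dpf, and none was higher. The 14 cartilage genes were all lower at 6-dpf and had no call at 10-dpf. At 14-dpf 12 were called higher and 2 lower in the model with sex (median log2 difference 3.22), but 2 higher and 2 lower with no sex term (median 0.98). Their summed CPM was 4661, 8790, 9731 and 7879 in WT mice and 7213, 6212 and 6487 in P-Apex1KO mice on that day, so the genotypes overlapped. The lowest WT value was that of the single WT female, on which the model with sex rests, and no direction is drawn from the 14-dpf calls of this list. Of 10 endothelial genes none passed at 6-dpf, 1 was lower at 10-dpf, and 5 were lower and 1 higher at 14-dpf. Of 8 dendritic cell genes 2, 1 and 0 were higher at the 3 days, of 6 mast cell genes 2, 0 and 0, and of the 7 erythroid genes tested 0, 0 and 5, with none lower in edgeR's test.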
